A study of Homo sapiens with 9 samples.

Results

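The genes described here encode DEAD box and DEAH box RNA helicases, enzymes that use ATP to unwind or remodel RNA and RNA-protein complexes. The members were the probe sets whose single platform gene symbol begins with DDX or DHX and a digit, without pseudogenes and antisense or divergent noncoding genes. The interferon-linked DDX58, DDX60, DDX60L and DHX58 were left out by the same rule. This gave 117 of 54675 probe sets and 48 of 19775 genes, of which 33 are DDX and 15 DHX genes. Expression had been measured in P493-6, an established human B-lymphocyte line, on 9 arrays. The labels give 4 arrays of high Myc expression, 3 of low Myc and 2 of no Myc, with no treatment, dose or time. As background, P493-6 carries a MYC transgene that tetracycline represses and an EBNA2 protein that depends on estrogen. The labels do not state the tetracycline or estrogen conditions of any group, nor whether replicates are separate cultures. The p-values thus measure how far these arrays vary, and this spread may be technical.

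In general, DEAD box proteins open short duplexes locally and act as clamps on RNA, while DEAH box proteins move along a strand and pull complexes apart. Many of them work in the nucleolus on ribosomal RNA precursors, others drive the steps of splicing, export mRNA or control its translation and decay. Making ribosomes is among the best known programmes of MYC, in B cells as elsewhere.

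MYC itself read 12755, 11326, 15404 and 12186 (intensity) on the high Myc arrays, 2126, 2526 and 1443 on low Myc replicates 1 to 3, and 2803 and 416 on no Myc replicates 1 and 2. The library labelled no Myc replicate 1 therefore went against its label, above the 3 low Myc arrays, and every direction drawn from the no Myc group includes it. Of 8 B-cell markers fixed for this check, 7 were measured, at mean log2 of 9.29 (CD79B) to 13.78 (CD74), against 4.58 to 5.80 for 6 myeloid and 6.02 to 7.43 for 7 T and NK cell markers. The array means of the B-cell list were 12.05 to 12.41 (log2) in no Myc and 10.57 to 11.36 on the other arrays, and those of the myeloid list 5.73 to 5.87 and 4.93 to 5.26. The myeloid shift lay in LYZ, at 9.60 and 8.38 (log2) on no Myc replicates 1 and 2 and 4.49 to 6.09 elsewhere, while S100A8 and S100A9 had means of 4.58 and 4.90. For GAPDH the 3' probe set read above the 5' one by 0.25 and 0.42 (log2) in no Myc and by 0.01 to 0.24 elsewhere. For ACTB the same difference was 0.00 and -0.01 in no Myc and -0.07 to 0.19 elsewhere. The part of these shifts in the results below was not tested. RMA gives arrays alike distributions, and differences are therefore set against the rest of the array. Changes in total RNA per cell, and fewer cells of a type against less RNA per cell, could not be told apart.

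Many RNA helicases were higher in high Myc cells than in the no Myc group, and few were lower. Of the 48 genes, 28 were called in high Myc against no Myc, beside 23.2% of all genes. They comprise 26 (54.2%) that rose by limma at an adjusted p under 0.05, the threshold used throughout, beside 14.2% of all genes. Falls numbered 2 (4.17%) beside 9.0% of all genes. The shares of all genes, here and below, were not matched to the helicases for brightness. The median log2 difference of the 48 was 0.62, against -0.01 for all genes, and 38 of the 48 differences were positive. Without overlap between the arrays of the groups, 32 members lay higher (66.7%, beside 20.6% of all genes) and 4 lower (8.33%, beside 17.8%). Nucleolar helicases of ribosome production led, with DDX21 at 5.74-fold and DHX33 at 5.14-fold, followed by the mRNA export helicase DDX39A at 3.36-fold. With the library labelled no Myc replicate 1 left out, 17 were up and 1 was down. The 17 that stayed in each of the 9 fits that left out 1 array were DDX1, DDX10, DDX11, DDX19A, DDX20, DDX21, DDX28, DDX31, DDX39A, DDX46, DDX49, DDX55, DDX56, DHX9, DHX15, DHX30 and DHX33. DDX3Y, which is Y-linked, is counted among the 48 and its level is not given. By limma it was among the genes that passed no comparison.

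**Figure D1:**
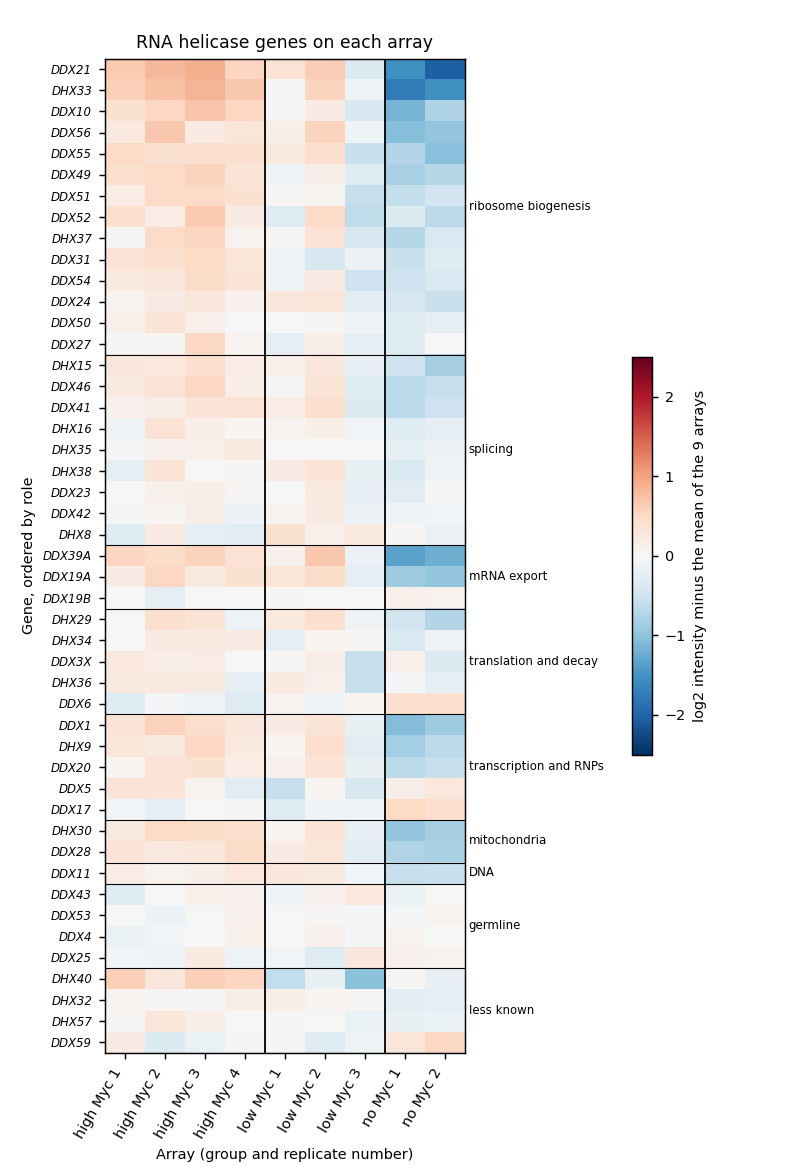
Heat map of log2 intensity minus the mean of the 9 arrays, for 47 helicase genes in rows (grouped by role) and 9 arrays in columns. Red is above and blue below the gene's mean, and DDX21, DHX33, DDX39A, DDX19A, DHX30 and DDX28 are blue on both no Myc arrays, while DDX17 and DDX6 are red there.

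Most helicases of ribosome production rose. They act on ribosomal RNA precursors in the nucleolus. Of 14 measured, 12 rose in high Myc against no Myc and 0 fell by limma, beside 14.2% and 9.0% of all genes. At an unadjusted p under 0.05 also 0 fell (12.7% of all genes), and the median log2 difference of the 14 was 0.89. DDX21, which links ribosomal RNA transcription with its processing, read 4432, 4931, 5276 and 4081 on the high Myc arrays, 3619, 4313 and 2217 on the low Myc arrays, and 963 and 685 on the no Myc arrays. Both no Myc arrays were far below the others, while high and low Myc overlapped. High Myc (12.19 ± 0.16 log2, SD, n = 4) exceeded no Myc (9.67 ± 0.35, SD, n = 2) by 2.52 ± 0.25 (log2 ± SE, adjusted p = 0.000258). A second DDX21 probe set gave 2.20 (adjusted p = 0.0003 over all probe sets).

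DHX33, a DEAH box helicase that supports RNA polymerase I, read 1333, 1468, 1589 and 1409 on the high Myc arrays. It read 860, 1296 and 808 on the low Myc arrays and 260 and 304 on the no Myc arrays. The 3 groups did not overlap, but high against low Myc was not called (limma, adjusted p = 0.0924). In that comparison 7 of the 48 helicases lay higher without overlap (14.6%, beside 8.06% of all genes). DHX33 exceeded its no Myc level by 2.36 ± 0.18 in high Myc (log2, adjusted p = 0.000121), and its second probe set gave 2.05.

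DDX10, needed for the small ribosomal subunit, showed the same order without overlap, and was also not called in high against low Myc (limma, adjusted p = 0.0799). Its intensity was 995, 1091, 1252 and 1093 in high Myc, 746, 879 and 572 in low Myc, and 339 and 448 in no Myc. High Myc exceeded no Myc by 1.50 ± 0.18 (log2, adjusted p = 0.000549). DDX56, a factor of large subunit assembly, read 742, 1006, 726 and 779, then 691, 925 and 583, then 299 and 318 in the same order of groups. DDX56 differed by 1.38 ± 0.19 between high and no Myc (log2, adjusted p = 0.00098), and high and low Myc overlapped.

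The other risers of this group lay between 0.40 and 1.30 on the log2 scale. They were DDX55 (1.30), DDX49 (1.20), DDX51 (0.92), DHX37 (0.83), which frees U3 RNA from the precursor, DDX31 (0.82), DDX54 (0.78), DDX24 (0.65) and DDX50 (0.40). DDX50, the close relative of DDX21, read 1061, 1205, 1055 and 966 in high Myc, 971, 980 and 905 in low Myc, and 786 and 830 in no Myc. DDX52 (0.86 ± 0.28, adjusted p = 0.0552) and DDX27 (0.30 ± 0.19, adjusted p = 0.367) did not pass. A dimmer DDX52 probe set was called higher (1.01, adjusted p = 0.0129 over all probe sets), and its remaining ones were not called. This group had 7 risers with the library labelled no Myc replicate 1 left out, since DDX51 (adjusted p = 0.0618), DDX54 (0.105), DDX50 (0.157), DDX24 (0.0826) and DHX37 (0.229) were then not called. With no Myc replicate 2 left out, neither DDX50 nor DDX24 was called (adjusted p of 0.076 and 0.138), nor DHX37 (0.0608). DDX24 was not called without high Myc replicate 3 (0.0543), nor DHX37 without high Myc replicate 2 (0.0587) or 3 (0.0679). In these 14 genes the mean was highest in high Myc and lowest in no Myc without exception, an order held by 31 of the 47 helicases with levels shown. The share of all genes with this order was not counted. Genes on the same arrays also shift together, so the order only describes these arrays.

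**Figure D2:**
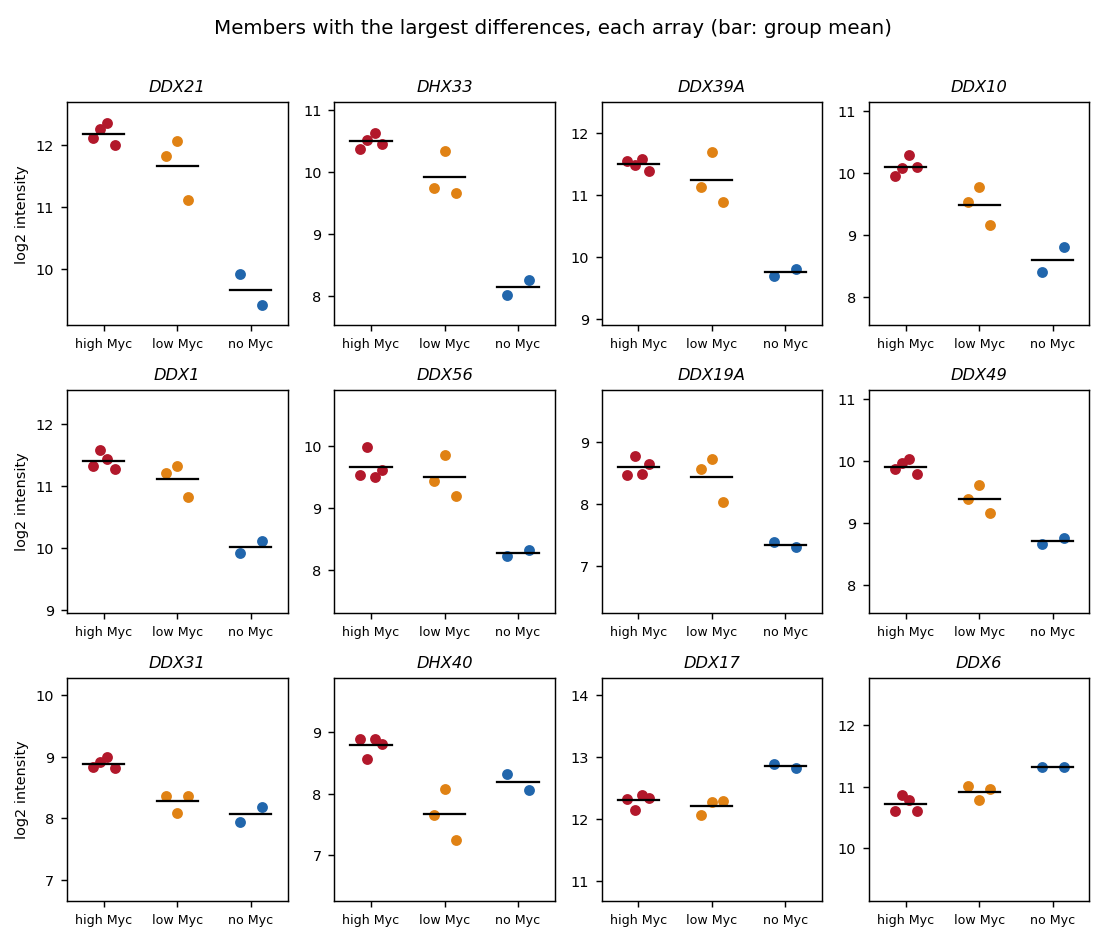
Dot plots of log2 intensity (vertical axis) by group for 12 helicase genes, with 1 dot per array and a bar at the group mean. DDX21, DHX33, DDX39A, DDX1, DDX56 and DDX19A sit low on both no Myc arrays, DHX40 is lowest in low Myc, and DDX17 and DDX6 are highest in no Myc.

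The stretches around the start sites of these genes were searched for the E-box CACGTG, the sequence that MYC with MAX is best known to bind. RefSeq promoters (GRCh38.p14, 250 bases before to 50 after a start) were at hand for 45 of the 48 genes, in 62 windows, and DDX49, DDX52 and DHX33 had none. CACGTG, which reads alike on both strands, was in a window of 10 of the 45 genes (22.2%), against 8.77% of all 27305 genes in the table and 10.9% of the 15843 protein-coding ones. Among helicases that rose in high Myc against no Myc it was in 6 of 24, and among the rest in 4 of 21. Of 11 genes of ribosome production 4 held it, which were DDX21, DDX31, DDX54 and DHX37. The variant CACGCG, searched on both strands as CACGCG or CGCGTG, was in 14 of the 45 genes (31.1%), against 13.5% of all genes and 18.1% of protein-coding ones. Base composition was not matched, and a match is a description of letters, not of binding. Shown are 3 windows of nucleolar helicases that rose and that of DHX40, the helicase with the largest difference between high and low Myc, each 5' to 3' on the gene's strand with CACGTG in capitals.
DDX21 (chr10:68956397-68956696, plus strand): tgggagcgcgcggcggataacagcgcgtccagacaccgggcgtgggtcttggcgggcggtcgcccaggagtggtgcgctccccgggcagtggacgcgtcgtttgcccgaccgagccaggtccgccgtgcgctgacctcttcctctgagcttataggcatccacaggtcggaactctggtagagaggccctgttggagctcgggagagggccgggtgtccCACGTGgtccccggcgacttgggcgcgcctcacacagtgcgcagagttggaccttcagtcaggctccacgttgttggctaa
DDX31 (chr9:132669934-132670233, minus strand): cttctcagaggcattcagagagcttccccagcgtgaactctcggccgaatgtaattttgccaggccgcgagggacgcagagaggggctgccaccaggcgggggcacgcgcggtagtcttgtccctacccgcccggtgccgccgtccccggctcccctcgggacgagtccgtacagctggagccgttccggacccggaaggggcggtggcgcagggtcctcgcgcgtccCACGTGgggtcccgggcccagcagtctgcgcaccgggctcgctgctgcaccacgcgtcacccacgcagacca
DDX54 (chr12:113185429-113185728, minus strand): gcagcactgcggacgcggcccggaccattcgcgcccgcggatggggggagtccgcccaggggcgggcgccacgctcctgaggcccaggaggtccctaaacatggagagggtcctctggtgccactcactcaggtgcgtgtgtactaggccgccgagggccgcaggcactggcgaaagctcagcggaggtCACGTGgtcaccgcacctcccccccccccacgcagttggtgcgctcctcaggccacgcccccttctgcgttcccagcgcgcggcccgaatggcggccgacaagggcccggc
DHX40 (chr17:59565360-59565659, plus strand): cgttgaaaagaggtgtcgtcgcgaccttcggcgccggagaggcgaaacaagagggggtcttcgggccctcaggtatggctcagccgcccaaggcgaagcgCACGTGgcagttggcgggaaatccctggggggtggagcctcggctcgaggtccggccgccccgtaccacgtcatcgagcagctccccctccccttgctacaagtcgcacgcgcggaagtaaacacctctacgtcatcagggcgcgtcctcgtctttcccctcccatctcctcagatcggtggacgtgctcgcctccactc
The first base of the motif lies at -31 in DDX21, -22 in DDX31, -61 in DDX54 and -150 in DHX40, counted from the start site. Other windows of DDX21 and DDX31 lacked CACGTG. DDX5 also held it, at -30 of 1 of its windows, and did not pass any comparison.

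Splicing helicases were split. These enzymes act in turn at the spliceosome, and 3 of 9 rose in high Myc against no Myc, beside 14.2% of all genes. By limma 0 were lower (9.0% of all genes), and 0 of 9 at an unadjusted p under 0.05 (12.7% of all genes). Without high Myc replicate 1 the risers were 5. DHX15, which takes spent spliceosomes apart, rose by 0.95 ± 0.15 (log2, adjusted p = 0.0017). DDX46, which acts with U2 snRNP, rose by 0.94 ± 0.18 (adjusted p = 0.00422). DDX41, known as a gene of inherited blood cancer risk, rose by 0.83 ± 0.19 (adjusted p = 0.0121). The DDX41 call was lost when either the library labelled no Myc replicate 1 or replicate 2 of that group was left out (adjusted p of 0.11 and 0.0503). The helicases of the later steps, DHX16 (0.39), DHX38 (0.28), DHX35 (0.30) and DHX8 (-0.08), and DDX23 (0.22) and DDX42 (0.09) did not pass, with adjusted p of 0.0527 to 0.819.

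In mRNA export, DDX39A and DDX19A rose and DDX19B did not pass. DDX39A, which loads export factors onto mRNA, read 3014, 2869, 3073 and 2687 on the high Myc arrays, 2252, 3322 and 1898 on the low Myc arrays, and 831 and 899 on the no Myc arrays. Low Myc replicate 2 was the highest of the 9 arrays, and the no Myc arrays were apart. The difference of high from no Myc was 1.75 ± 0.19 (log2, adjusted p = 0.000359). DDX19A, which strips export factors at the nuclear pore, read 357, 441, 360 and 402 in high Myc, 382, 426 and 262 in low Myc, and 167 and 158 in no Myc. That was a rise of 1.26 ± 0.19 in high against no Myc (log2, adjusted p = 0.00124). The intensity of its relative DDX19B was 81.6, 68.8, 81.6 and 81.6, then 83.9, 81.6 and 81.6, then 89.7 and 86.3. DDX19B differed by -0.17 ± 0.10 (adjusted p = 0.326), on 1 probe set that read near the array medians of 75.3 to 80.3.

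The multifunctional nuclear helicases moved in both directions. DDX1, a part of the tRNA ligase complex, read 2549, 3064, 2762 and 2471 in high Myc, 2366, 2549 and 1802 in low Myc, and 966 and 1101 in no Myc. The no Myc arrays lay below the others, and high Myc exceeded them by 1.39 ± 0.15 (log2, adjusted p = 0.000373). DHX9, or RNA helicase A, rose by 1.07 ± 0.18 (adjusted p = 0.00217) and DDX20, the Gemin3 subunit of the SMN complex, by 0.87 ± 0.15 (adjusted p = 0.00339). DDX17, a coregulator of transcription and microRNA processing, read 5126, 4554, 5364 and 5219 in high Myc, 4314, 4991 and 5018 in low Myc, and 7593 and 7263 in no Myc. It was thus highest on both no Myc arrays and fell by 0.55 on the log2 scale (SE 0.11, adjusted p = 0.00488), a call lost when the library labelled no Myc replicate 1 was left out (0.0518). The 4 other DDX17 probe sets had differences of -0.39 to -1.33 and were not called. DDX5 read 206, 210, 176 and 139 in high Myc, 111, 172 and 126 in low Myc, and 187 and 199 in no Myc. High Myc overlapped with both other groups, and DDX5 did not pass against no Myc (-0.10 ± 0.21, adjusted p = 0.848). It is represented by 1 dim probe set, since another is shared with microRNA symbols and was not used here.

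Among helicases of translation and decay, DDX6 was the second gene that fell. Of 6, 2 rose and 1 fell in high against no Myc, beside 14.2% and 9.0% of all genes. DHX29, which helps ribosomes through structured leaders, rose by 0.75 ± 0.19 (adjusted p = 0.0197) and DHX34, of nonsense-mediated decay, by 0.42 ± 0.13 (adjusted p = 0.041). Dropping the library labelled no Myc replicate 1 ended both calls (adjusted p 0.0586 and 0.33), as did leaving out no Myc replicate 2 (0.158 and 0.0525) or high Myc replicate 3 (0.0514 and 0.0969), and that of DHX34 was also lost without high Myc replicate 2 (0.0863) or 4 (0.0895). DDX6, the helicase of P-bodies and decapping, read 1560, 1862, 1763 and 1549 in high Myc, 2053, 1754 and 2000 in low Myc, and 2535 and 2540 in no Myc. The no Myc arrays were highest, and DDX6 fell by 0.60 on the log2 scale (SE 0.11, adjusted p = 0.00451). Its 2 other probe sets gave 0.32 and -0.01 and were not called, so the fall rests on the brightest. DDX3X, a translation start helicase (0.27 ± 0.21), and DHX36, which unwinds G-quadruplexes (0.25 ± 0.23), did not pass, with adjusted p of 0.509 and 0.579. A dimmer DHX36 probe set was called higher (0.73, adjusted p = 0.015 over all probe sets), and its remaining ones were not called.

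Both mitochondrial helicases rose in high Myc against no Myc, as did the DNA helicase DDX11, beside 14.2% of all genes. DHX30, of mitochondrial RNA granules, rose by 1.31 ± 0.16 (log2, adjusted p = 0.000479). A second of its 6 probe sets was called higher (1.31, adjusted p = 0.00244 over all probe sets). The remaining ones, at 0.13 to 0.49, were not called. DDX28, which assembles the mitochondrial large ribosomal subunit, rose by 1.11 ± 0.16 (adjusted p = 0.000993). DDX11, which acts in sister chromatid cohesion, rose by 0.73 ± 0.11 (adjusted p = 0.00166), and near-identical copies of this gene may share its probes. By limma 0 of the 4 germline helicases DDX4, DDX25, DDX43 and DDX53 passed in any comparison, and 0 at an unadjusted p under 0.05. Among all genes 23.2% were called in high against no Myc, 19.8% in low against no Myc and 3.6% in high against low Myc. With only 4 genes, 0 calls are not a result about germline helicases. DDX4, DDX43 and DDX53 read at mean log2 of 4.39, 4.33 and 3.80, near the lowest intensities. Of the less studied helicases, DHX32 rose by 0.33 ± 0.09 (adjusted p = 0.0214), a call lost without high Myc replicate 4 (adjusted p = 0.0535), the library labelled no Myc replicate 1 (0.129) or no Myc replicate 2 (0.088). DHX57 (0.30, adjusted p = 0.102) and DDX59 (-0.49, adjusted p = 0.0559) did not pass. The 2 other DDX59 probe sets were called lower (-0.62 and -0.84, adjusted p of 0.029 and 0.0239 over all probe sets).

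**Figure D3:**
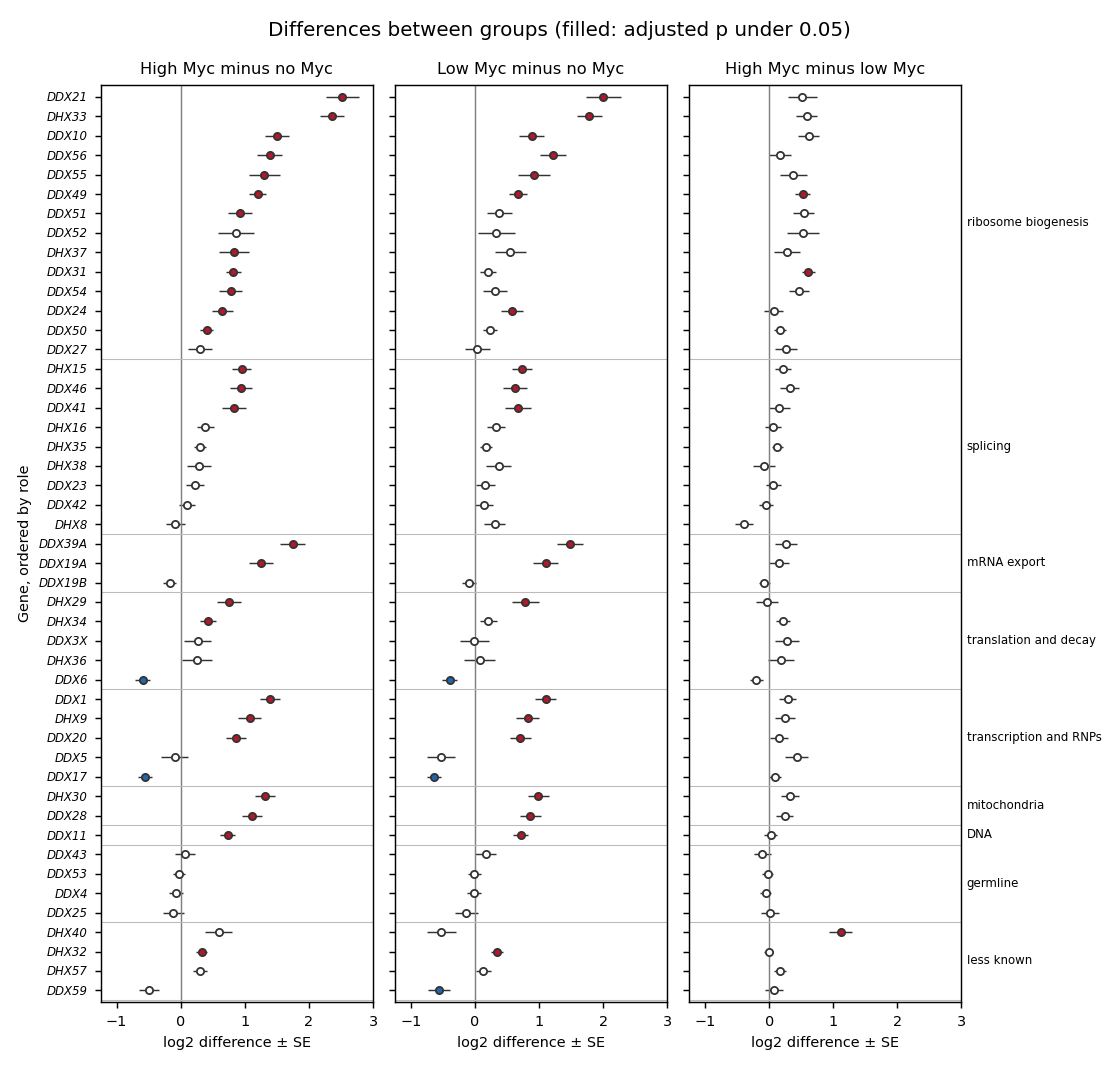
Log2 differences with standard errors (horizontal axis) for 47 helicase genes, in the 3 comparisons. Filled points passed an adjusted p of 0.05, red up and blue down, and the panel of high minus low Myc has 3 filled points against 28 in that of high minus no Myc.

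Many helicases were also higher on the low Myc arrays than on those labelled no Myc. MYC itself did not pass in this comparison (1.83-fold, adjusted p = 0.484), with the library labelled no Myc replicate 1 above the 3 low Myc arrays. Of the 48 genes, 23 were called, beside 19.8% of all genes, where 20 (41.7%) rose in low Myc against no Myc, beside 11.3% of all genes, and 3 (6.25%) fell, beside 8.55% of all genes. This comparison shares the no Myc arrays with the one above. Of the risers, the largest were DDX21 at 4.01-fold (adjusted p = 0.00135 by limma), DHX33 at 3.43-fold (0.00069), DDX39A at 2.80-fold (0.00146), DDX56 at 2.33-fold (0.00331), DDX19A at 2.15-fold (0.00433) and DDX1 at 2.15-fold (0.002). In these 6 genes, named for their size of difference, the low and no Myc arrays did not overlap. Among all 48 helicases, 24 lay higher without overlap, beside 20.0% of all genes, and 5 lower, beside 17.6%. The risers numbered 10 with the library labelled no Myc replicate 1 left out, and 12 with no Myc replicate 2 left out. The 9 called in each fit that left out an array were DDX1, DDX11, DDX19A, DDX21, DDX28, DDX39A, DDX56, DHX30 and DHX33. Of ribosome production 7 of 14 rose, or 3 when the library labelled no Myc replicate 1 was left out. Of splicing DDX41, DDX46 and DHX15 rose, but the calls of DDX41 and DDX46 were lost in each fit that left out an array other than low Myc replicate 3, with adjusted p of up to 0.26 and 0.23, and that of DHX15 with no Myc replicate 2 left out (0.0911).

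The fallers in low against no Myc were DDX17, DDX59 and DDX6. DDX17 fell by 0.64 on the log2 scale (SE 0.11, adjusted p = 0.00423) in each of those fits. DDX59 read 271, 220 and 251 in low Myc, 337 and 393 in no Myc, and 315, 216, 244 and 271 in high Myc. The fall of DDX59 was 0.56 (log2 -0.56 ± 0.17, adjusted p = 0.0452) and that of DDX6 was 0.39 (log2 -0.39 ± 0.12, adjusted p = 0.0479). Both were near the threshold, and leaving out any of 7 arrays for DDX59 and any of 8 for DDX6 ended the call. The exceptions were high Myc replicates 1 and 2 for DDX59 and high Myc replicate 2 for DDX6, and the highest adjusted p were 0.247 and 0.195. The 2 other DDX6 probe sets, which were not called, had differences of 0.23 in the opposite direction, as did the median of its probe sets.

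Between high and low Myc few helicases passed. Of the 48, 3 were called, beside 3.6% of all genes. The 3 (6.25%) rose, beside 2.33% of all genes, and 0 fell, beside 1.27%. At an unadjusted p under 0.05 limma had 10 higher and 1 lower, beside 10.0% and 6.42% of all genes. The median log2 difference was 0.17, against 0.00 for all genes, with 38 of 48 positive. In ribosome production the 14 differences were 0.07 to 0.61, with a median of 0.49.

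DHX40 differed most. Little is known of this DEAH box protein. It read 472, 376, 470 and 448 on the high Myc arrays, 202, 271 and 153 on the low Myc arrays, and 317 and 268 on the no Myc arrays. Low Myc was the lowest group and did not overlap with high Myc, while no Myc lay between and overlapped with low Myc. High Myc (8.78 ± 0.15 log2, SD, n = 4) was above low Myc (7.66 ± 0.41, SD, n = 3) with a difference of 1.12 ± 0.18 (2.17-fold, adjusted p = 0.0168). The second DHX40 probe set gave 0.90 (adjusted p = 0.0065 over all probe sets). In high against no Myc DHX40 had 0.59 ± 0.21 (adjusted p = 0.0768), while its second probe set was called higher (0.79, adjusted p = 0.0019 over all probe sets). In low against no Myc DHX40 had -0.52 ± 0.22 (adjusted p = 0.151).

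DDX31 and DDX49 were the other 2. DDX31, a nucleolar helicase, read 457, 481, 509 and 449 in high Myc, 330, 273 and 329 in low Myc, and 247 and 290 in no Myc, so that low and no Myc overlapped. High Myc exceeded low Myc by 0.61 ± 0.10 (log2, adjusted p = 0.0194), and a second of its 3 probe sets by 1.14 (adjusted p = 0.0214 over all probe sets). DDX49 read 938, 1002, 1046 and 885, then 669, 783 and 575, then 407 and 432, with no overlap. It exceeded low Myc by 0.53 ± 0.12 (adjusted p = 0.0454). In the limma fit adjusted over all probe sets, this probe set was not called (adjusted p = 0.0656). The other DDX49 probe sets, at 0.60 and 0.04, were not called either. Leaving out high Myc replicate 1, 3 or 4, or the first low Myc array, left 0 of the 48 called higher. Leaving out low Myc replicate 2 gave 8, by adding DDX10, DDX39A, DDX52, DDX54 and DHX33. The highest adjusted p in those fits were 0.063 for DHX40, 0.0691 for DDX31 and 0.137 for DDX49, whose call held without low Myc replicate 2 alone. Without high Myc replicate 2, 1 gene was lower, DHX8.

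The 3 low Myc arrays differed among themselves in a shared way. The median SD of a helicase was 0.26 (log2) over the low Myc arrays, against 0.13 in high Myc and 0.10 in no Myc. Low Myc replicate 2 was the highest of the 3 in 35 of 47 helicases and low Myc replicate 3 the lowest in 36, and both held in 32 (68.1%), beside 22.3% of all genes. Among the 26 helicases that rose in high against no Myc both held in 22 (84.6%), and among all 2805 such genes in 65.3%. MYC had the same order on these arrays, with 2526 on replicate 2, 2126 on replicate 1 and 1443 on replicate 3. Members of 1 array share its RNA, so these counts describe 3 arrays.

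Close relatives differed in size of change, but not past a test over arrays. The pairs were compared by the difference between high Myc and the 5 other arrays. DDX21 differed by 1.32 (log2) and DDX50, its neighbour in sequence and on chromosome 10, by 0.26. The difference of these changes was 1.06 (exact two-sided permutation test p = 0.0635, adjusted over 3 pairs 0.143), and the smallest p that this test can give is 0.0159. DDX19A differed by 0.60 and DDX19B by -0.11 (difference 0.71, exact permutation p = 0.143, adjusted 0.143). The 1 probe set of DDX19B read near the array medians and may be too dim to show a change. DDX5 and DDX17 differed by 0.22 and -0.17 (difference 0.39, exact permutation p = 0.0952, adjusted 0.143). The 5 other arrays hold both low and no Myc, whose levels are apart in DDX21, DDX19A and DDX17. A probe set named for both DDX19A and DDX19B was not used.

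**Figure D4:**
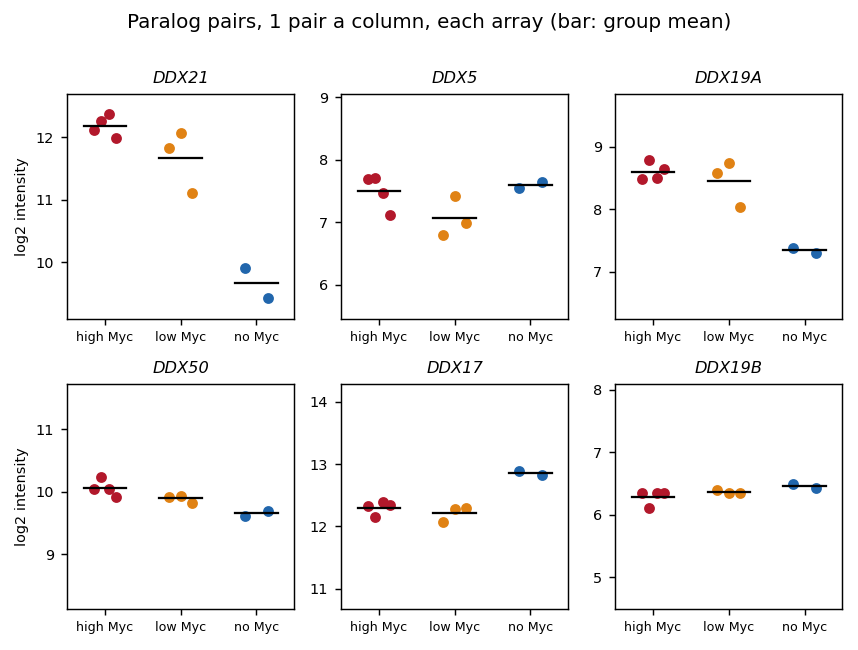
Dot plots of log2 intensity (vertical axis) by group for 3 pairs of related helicases, 1 pair in each column, with 1 dot per array and a bar at the group mean. DDX21 and DDX19A in the upper row are low on both no Myc arrays, while their relatives DDX50 and DDX19B in the lower row span a narrow range.

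Probe sets of 1 gene often differed in size but were not called in opposite directions. Of 113 probe sets of the 47 genes with levels shown, 47 rose and 4 fell in high against no Myc in a fit adjusted over all probe sets, beside 9.24% and 7.79% of all 54675. Of 34 genes with several probe sets, 20 had unlike calls, and 0 were called both ways. The 31 probe sets with a mean log2 under 7 had a median difference of 0.03 with 3 risers, and the 82 brighter ones 0.66 with 44. DHX37, for example, differed by 0.83 on its brightest probe set and by 1.52 on the other. DHX9 gave 1.07, 1.84 and 1.87. A second DDX56 probe set, at 0.08, was not called. Risers with a probe set not called were DDX10, DDX11, DDX19A, DDX24, DDX28, DDX31, DDX49, DDX50, DDX51, DDX54, DDX56, DHX29, DHX30 and DHX34. The uncalled ones gave 0.16 in DHX29, 0.08 and 0.19 in DDX50, 0.44 and -0.02 in DDX51, and 0.65 in DDX24.

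Other RNA helicases and partner proteins were counted from 6 lists of 86 genes, of which 74 were measured. In high against no Myc 29 of the 74 rose and 3 fell, beside 14.2% and 9.0% of all genes, and the risers were 18 or 19 when the library labelled no Myc replicate 1 or no Myc replicate 2, respectively, was left out. The fallers were then 2 and 5. The SMN complex, which loads proteins onto spliceosomal RNAs and to which DDX20 belongs, had 6 of 7 risers (median 1.01). GEMIN5, which recognises those RNAs, rose by 3.13 ± 0.24 (log2, adjusted p = 0.000118), GEMIN6 by 1.59, GEMIN4 by 1.54 and STRAP by 1.01. Partners of eIF4A and the exon junction complex had 6 of 9 risers (median 0.86), led by MAGOHB (1.89), the scaffold EIF4G1 (1.43), the cap-binding EIF4E (1.24) and RBM8A (0.95). Leaving out no Myc replicate 2 ended the call of EIF4E (adjusted p = 0.0533).

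Of 16 other RNA helicases 5 rose (median 0.12), and 3 without no Myc replicate 2. Among all genes 14.2% rose. EIF4A3, the anchor of the exon junction complex, rose by 1.91 ± 0.24 (adjusted p = 0.000572), the mitochondrial SUPV3L1 by 1.35, ASCC3 by 0.95 and MTREX, of the nuclear exosome, by 0.89. The MTREX call ended with no Myc replicate 2 left out (adjusted p = 0.0855). Among 12 export partners 5 rose (median 0.60), or 1 when the library labelled no Myc replicate 1 was left out. They included ALYREF, the export adaptor (1.62), NXT1 (1.19), THOC5 (0.95) and THOC1 (0.87), and NXT1 was the one that stayed. The adjusted p of ALYREF, THOC5 and THOC1 was then 0.114, 0.0507 and 0.226, and THOC1 was not called without high Myc replicate 3 (0.0528).

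G-patch proteins, which include activators of DEAH box helicases, went both ways, with 5 risers and 3 fallers of 18 (median -0.03). Among all genes 14.2% rose and 9.0% fell. The risers were led by GPATCH4 (1.93), PINX1 (1.20) and CHERP (1.05), and RBM5, a splicing regulator, fell by 1.15 on the log2 scale (SE 0.11, adjusted p = 0.000208). The risers were 3 without high Myc replicate 3 and 2 without either no Myc array. PINX1 was lost when the library labelled no Myc replicate 1 was left out (adjusted p = 0.17) and CHERP without no Myc replicate 2 (0.0923). Of 12 partners of DDX6, 2 rose (median 0.13), a share near the 14.2% of all genes. They were EDC4 (0.55, adjusted p = 0.0375) and ATXN2 (0.42, adjusted p = 0.0422). Leaving out either no Myc array or any of high Myc replicates 2, 3 and 4 ended both calls, EDC4 also without low Myc replicate 1 and ATXN2 without low Myc replicate 2 or high Myc replicate 1, with adjusted p of up to 0.176 and 0.265.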

How the data were processed

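Per the submitters' processing notes, the authors used RMA, with a version not given in the sources used here. The deposited values were read as intensity on a linear scale from their range (array medians of 75.3 to 80.3). log2 of the deposited intensity was used. Of 54675 probe sets, 41097 had 1 gene symbol, 1801 several and 11777 none. Symbols of 41043 were set to the RefSeq symbol of their Entrez gene. A gene was represented by its brightest probe set on average, which gave 19775 genes. Group means were fitted to all 9 arrays with limma 3.58.1 in R 4.3.3 (lmFit, eBayes, 6 residual degrees of freedom), two-sided, with Benjamini-Hochberg adjustment over all genes. Related pairs were tested with SciPy 1.17.1 (exact permutation). The pair of DDX39A with DDX39B was not tested, since probe sets of the latter carry several symbols. The fit was tested on simulated data.

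Members, roles and lists were chosen with earlier results of these data known. By rule, each comparison's 6 top risers and 4 top fallers among called members, and the related pairs, have values on each array. All members may be named by role, and up to 4 called genes per list by size of difference between high and no Myc. The promoter windows shown were chosen after their values were seen. The number of arrays limits the precision. Alternatives were 2 scalings, a filter at a mean log2 of 5, probe set rules, variance prior, array weights, 2 groups, the replicate block, a threshold of 0.01 and each array left out.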

Additional observations from a re-analysis of the deposited data

Results flagged for a closer look

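In 5 of the 47 helicases with levels shown, 1 of the 4 high Myc arrays stood apart from the other 3 by Dixon's criterion, which chance meets in about 1 of 20 groups. DDX19B read 6.10 (log2) on high Myc replicate 2 and 6.35 on the others, which were tied. With such ties any departure meets the criterion, so the stated rate does not apply to DDX19B. DDX55 read 8.51 on high Myc replicate 1 against 8.39 to 8.40. DHX34 read 7.71 on high Myc replicate 1 against 7.92 to 7.93. DHX36 read 10.40 on high Myc replicate 4 against 10.84 to 10.85. DHX8 read 8.40 on high Myc replicate 2 against 7.90 to 7.97, and without that array DHX8 was called lower in high Myc than in low Myc.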

How the results depend on the processing

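In both comparisons with no Myc, the counts of helicases that rose stayed within 1.5 times of the values reported under most settings tried. The 3 risers in high against low Myc and the 3 fallers in low against no Myc were less stable. In high against no Myc the 26 risers ranged from 17 to 28 and the 2 fallers from 1 to 3 when 1 array was left out, and the fallers were 1 with the median of probe sets. In high against low Myc the 3 risers ranged from 0 to 8 and the fallers from 0 to 1, with 6 risers under array weights, and 0 at a threshold of 0.01. In low against no Myc the 20 risers ranged from 10 to 23 and the 3 fallers from 1 to 3. The risers were 11 with the 2 groups alone and 10 at a threshold of 0.01. The fallers were 0 with the median of probe sets and 1 with all probe sets fitted, a trended and robust prior, array weights, the 2 groups alone or a threshold of 0.01. With the median of probe sets DDX6 reversed, to 0.32 in high against no Myc and 0.23 in low against no Myc. The 29 risers among listed genes ranged from 18 to 30. The differences of change ranged from 0.72 to 1.32 for DDX21 and DDX50 (the highest without low Myc replicate 2, where the exact permutation test passed 0.05 before adjustment), from 0.27 to 0.53 for DDX5 and DDX17, and from 0.52 to 0.90 for DDX19A and DDX19B.

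Deviations of same-numbered arrays correlated at -0.31 (replicate 3, high and low Myc) to 0.47 (replicate 1, low and no Myc). Those of arrays with unlike numbers correlated at -0.47 to 0.44. The replicate 1 pairs were all positive, at 0.25 (high and low Myc), 0.45 (high and no Myc) and 0.47. The labels do not say whether same-numbered arrays belong together, and these values do not settle it. With the replicate block, the risers in high against low Myc were 0 and the fallers in low against no Myc 1, with 24 and 15 risers in the comparisons of high and low with no Myc and 27 among listed genes. The cause of each shift was not tested. Fits that left out a no Myc array assume that the lone one varies like the other groups.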
